A study of Mus musculus with 8 samples.

Results

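The 45 genes described here act in synapsis and recombination of homologous chromosomes during male meiosis. They were taken from the deposited table by their gene symbols, and all 45 were found among its 19906 genes. Total RNA from whole testes was sequenced, with 1 library from each of 4 Tmem232-/- mice and 4 Tmem232+/+ mice, all aged 2 months. The Tmem232-/- mice carry a frameshift deletion in the gene of TMEM232, a testis-enriched membrane protein, made by CRISPR-Cas9 in fertilised oocytes of C57BL/6 mice and so not limited to a cell type, and the Tmem232+/+ mice are wild-type. The comparison asked how testis transcripts differ after the loss of Tmem232.

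In meiosis, homologous chromosomes must find each other, pair along their length and exchange DNA before they can be separated. Double-strand breaks are made at sites marked by a histone methyltransferase, the broken ends are coated by recombinases that search for the homologue, and a few of the repaired sites become crossovers. The synaptonemal complex, a protein zipper built on a cohesin-based axis, holds the homologues together meanwhile. In the mouse testis these events take place in primary spermatocytes, and loss of most of these genes stops spermatogenesis at that stage. A whole testis also holds spermatogonia, spermatids and somatic cells, and in bulk RNA fewer cells of a type and less RNA per cell cannot be told apart.

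The libraries held between 15428421 and 16350871 counts, of which the 45 genes took between 68172 and 82062, or 0.427% to 0.51%. For each mouse a level is printed in CPM, the counts per 1000000 counts after TMM scaling, and levels between genes are in FPKM, which is per kilobase of transcript. The genotypes were compared with the quasi-likelihood test of edgeR over 15787 genes with Benjamini-Hochberg adjustment, and a gene was called at an adjusted p under 0.05. The targeted gene, Tmem232, averaged 131 ± 11.8 CPM under the label Tmem232-/- and 109 ± 2.08 CPM under the label Tmem232+/+ (SD, n = 4 each). Its change of 0.27 on the log2 scale (adjusted p = 0.034) goes against the direction a loss of its transcript would give. The deletion removes only some of its exons and the table holds 1 count per gene, so a whole-gene count need not fall and did not verify the labels, and every direction below is that of the labels. According to the methods, genotypes were set by PCR on tail DNA.

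Most of the 45 genes differed little between the labels. Rec8, the meiosis-specific kleisin of cohesin, was 1.46-fold higher in the libraries labelled Tmem232-/-. Dmc1, the meiotic recombinase, its partner Mnd1, and Stra8, the retinoic acid responsive factor of meiotic entry, were lower, and fell by 20.8%, 26.6% and 21.9%. The other 41 genes did not pass the test, and their log2 fold changes lay between -0.42 and 0.21.

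The share of genes called higher was 2.22% among the 45 (1 gene), against 10.3% of the 15787 tested genes. The share called lower was 6.67% (3 genes), against 1.46% of the tested genes. The median log2 fold change of the 45 was -0.08 (-0.15 to -0.013 with single mice left out, the extremes without replicates 1 and 4 labelled Tmem232-/-). For all tested genes it was -0.05 (-0.056 to -0.0067 with single mice left out). Of the 45, 77.8% had a negative value beside 60.8% of all. Overlap of the groups was also counted. In 1 of the 45 genes, or 2.22%, all mice labelled Tmem232-/- were above all others, against 11.8% of the tested genes, and in 8, or 17.8%, they were all below, against 6.88%. By CPM, the 8 were Dmc1, Stra8, Mnd1, Zcwpw1, Rad51ap2, Msh5, Mei1 and Rec114. At an unadjusted p under 0.05, edgeR gave 9 genes lower, which are the called ones with Sycp3, Rec114, Zcwpw1, Meiob, Rad51ap2 and Msh5, and 2 higher, Rec8 and Smc1b. Of all tested genes 10.5% were lower and 14.6% higher at that p. DESeq2 called Rec8 higher and 2 genes lower, Dmc1 and Stra8 but not Mnd1 (adjusted p = 0.096), and limma-voom called the same 4 genes as edgeR. With each mouse left out in turn, between 0 and 2 of the 45 genes were called lower and 1 or 2 higher, and none was lower without replicate 2 labelled Tmem232-/-.

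**Figure D1:**
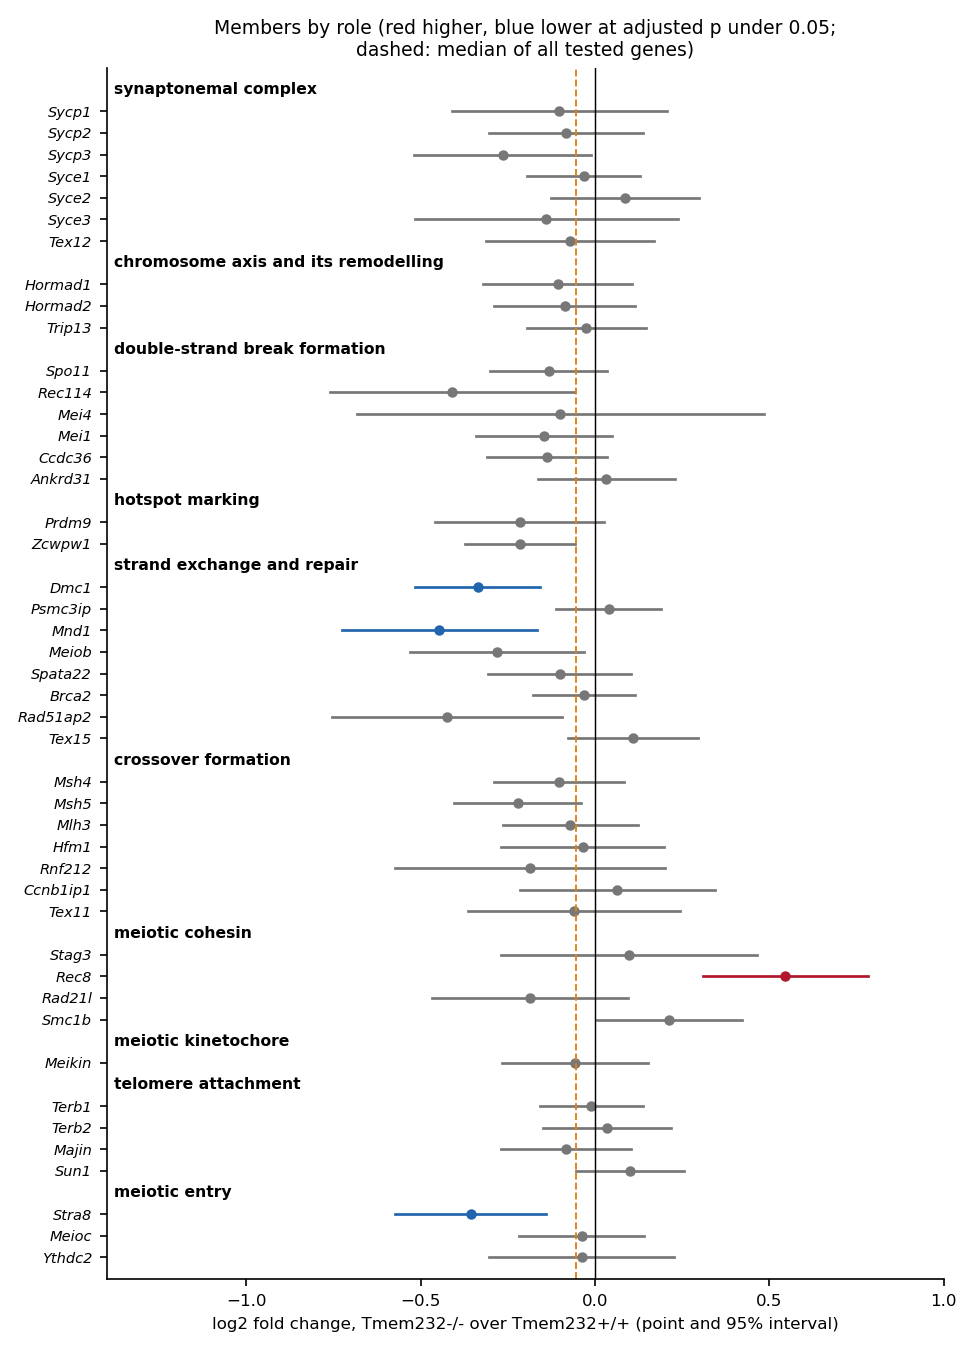
Log2 fold change (horizontal axis) of the 45 genes in libraries labelled Tmem232-/- over Tmem232+/+, grouped by role. Points are edgeR estimates and bars are 95% intervals from 4 mice against 4, and the dashed line is the median of all tested genes at -0.05. Rec8 (red) stands at 0.55 and Mnd1, Stra8 and Dmc1 (blue) stand at -0.45, -0.36 and -0.34, while most grey bars cross 0.

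The precision allowed modest changes to be bounded. The standard error (SE) of the log2 fold change lay between 0.067 and 0.27 over the 45 genes, with a median of 0.095. For 38 of the 41 genes that were not called, the 95% interval of the change stayed within 1.5-fold in either direction. The exceptions were Rec114, Mei4 and Rad51ap2, and for all 41 the interval stayed within 2-fold. Counts per gene and library ran from 16 for Mei4 to 10947 for Stag3, and no gene of the 45 was at 0 in any library.

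Levels spanned more than 2 orders of magnitude. Sycp3, which builds the lateral element of the synaptonemal complex, had the highest level with a mean of 320.6 FPKM over the 8 mice, followed by the central element protein gene Syce1 with 284 FPKM. The ranges of these neighbours overlapped, from 253 to 425 FPKM and from 269 to 311 FPKM. Hormad1, Stag3, Sycp1, Psmc3ip and Sycp2 also exceeded 100 FPKM, and the median of the 45 genes was 21.3 FPKM. The 5 genes under 5 FPKM were Rad51ap2, Mei1, Rec114, Rad21l and Mei4, of which Mei4 was lowest with 0.69 FPKM. The 45 genes lie on 17 chromosomes, and Tex11 is the X-linked one.

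**Figure D2:**
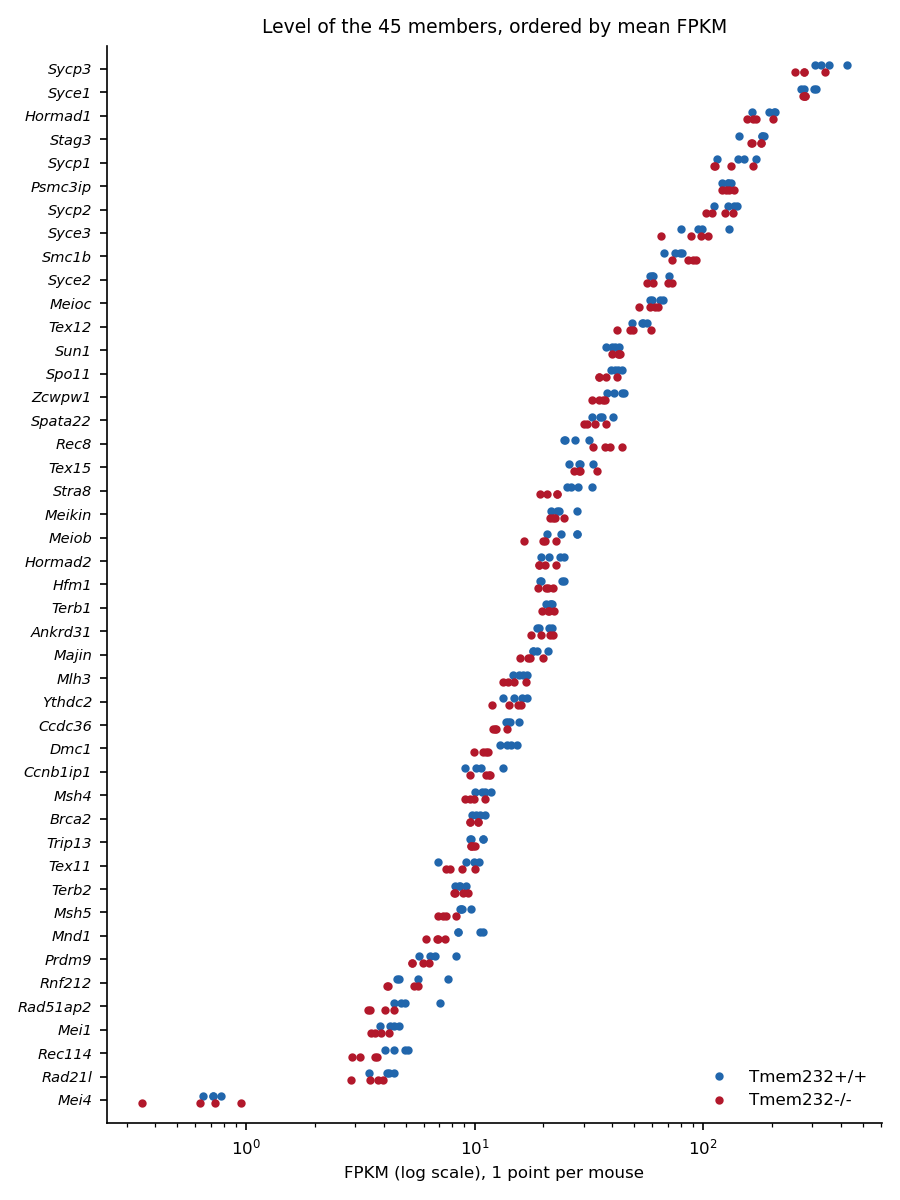
FPKM (log scale, horizontal axis) of the 45 genes in each of the 8 mice, 1 point per mouse, ordered by the mean. Red points are libraries labelled Tmem232-/- and blue points Tmem232+/+. The points of the labels interleave for most genes, and single mice run from 0.35 FPKM for Mei4 to 425 FPKM for Sycp3.

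Of the 7 genes of the synaptonemal complex none passed the test, and their median log2 fold change was -0.08. Sycp3 was at 335, 243, 266 and 261 CPM in replicates 1 to 4 labelled Tmem232-/- and at 299, 328, 395 and 306 CPM under the label Tmem232+/+. The highest mouse labelled Tmem232-/- lay within the range of the others, and the log2 fold change was -0.26 (SE 0.12, adjusted p = 0.18). Without replicate 1 labelled Tmem232-/- it was -0.37 (adjusted p = 0.051), and without replicate 3 labelled Tmem232+/+ it was -0.14 (adjusted p = 0.44). Sycp1, whose protein forms the transverse filaments between the axes, was at 493, 334, 397 and 319.7 CPM against 339.8, 436, 472 and 409 CPM. The spread within each label exceeded the difference between them, at a log2 fold change of -0.10 (SE 0.14, adjusted p = 0.69). This change ranged from -0.24 to -0.0035 with single mice left out. Sycp2, the lateral element partner of Sycp3, had 124 FPKM. The central element genes Syce2, Syce3 and Tex12 had 63.8, 95.1 and 51.5 FPKM. Syce3 has the shortest transcript length of the 45 genes, 0.275 kb as the deposited values imply it, and its CPM ranged from 18.2 to 35.3 over the mice.

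The 3 genes of the chromosome axis and its remodelling were not called either, with a median log2 fold change of -0.09. Hormad1, which marks unsynapsed axes and promotes break formation, was at 309.6, 234, 259 and 244 CPM in the mice labelled Tmem232-/- and at 248, 298, 297 and 284 CPM in the others. The groups overlapped, and the log2 fold change was -0.11 (SE 0.097, adjusted p = 0.53). It lay between -0.20 and -0.051 with single mice left out. Hormad2, its paralogue in the surveillance of asynapsis, had 21.3 FPKM, and Trip13, the ATPase that removes HORMAD proteins from synapsed axes, had 10.01 FPKM. Trip13 was among the genes with the least spread, with 20.8 ± 0.667 CPM against 21.2 ± 1.25 CPM (SD, n = 4 each).

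Genes of double-strand break formation had a median change of -0.13 on the log2 scale, and none of the 6 was called. Spo11, the topoisomerase-like enzyme that cuts the DNA, was at 62.1, 51.8, 51.5 and 54.0 CPM against 61.1, 56.2, 60.2 and 63.0 CPM. Its log2 fold change was -0.13 (SE 0.076, adjusted p = 0.31), and 1 mouse labelled Tmem232-/- lay among the others. Rec114, a subunit of the complex that activates SPO11, was at 2.8, 2.7, 2.34 and 2.09 CPM against 3.3, 2.85, 3.55 and 3.5 CPM. All mice labelled Tmem232-/- were below the others (two-sided p = 0.029 by exact permutation, which is the limit for 4 mice against 4). The log2 fold change of -0.41 (SE 0.16) had an adjusted p of 0.14, on 34 to 57 counts per library, and therefore missed the threshold. Mei1, needed for the breaks to form, had 12 ± 0.741 CPM against 13.3 ± 0.501 CPM (SD, n = 4 each), without overlap but with an adjusted p of 0.34. In FPKM its groups overlapped, with 4.21 in replicate 4 labelled Tmem232-/- and 3.86 in replicate 2 labelled Tmem232+/+. The partners of Rec114 in the break machinery, Mei4, Ccdc36 (also known as Iho1) and Ankrd31, overlapped between the labels and had 0.69, 13.5 and 20.1 FPKM.

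Both genes of hotspot marking had a log2 fold change of -0.22. Prdm9, the methyltransferase that places the breaks, was at 22.9, 19.3, 20.7 and 18.3 CPM against 20.7, 22.3, 28.0 and 23.3 CPM. The labels overlapped, with a standard error of 0.11 and an adjusted p of 0.25. With single mice left out, the log2 fold change of Prdm9 ranged from -0.28 to -0.092. Zcwpw1, a reader of the marks that PRDM9 sets, was at 77.2, 67.9, 77.2 and 70.6 CPM against 79.3, 90.2, 88.8 and 81.9 CPM. Its groups did not overlap, and with a standard error of 0.072 the adjusted p was 0.082.

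The 8 genes of strand exchange and repair held 2 of the 3 genes called lower with a median of -0.19 on the log2 scale. Dmc1 (Entrez ID 13404, chr15:79561497-79605159 in the deposited table, build GRCm38.p6) encodes the recombinase that coats the resected ends and invades the homologue. It was at 23.6, 20.6, 23.7 and 21.6 CPM under the label Tmem232-/- and at 26.6, 30.3, 27.1 and 28.9 CPM under Tmem232+/+. All mice labelled Tmem232-/- were below the others. The log2 fold change was -0.34 with a standard error of 0.082, a 95% interval of -0.52 to -0.16 and an adjusted p of 0.019. The call was lost without replicate 2 labelled Tmem232-/- or replicates 2 or 4 labelled Tmem232+/+ (adjusted p up to 0.068). It was also lost with the replicate number as a block (adjusted p = 0.11, the largest over all alternatives), although these numbers do not pair the mice. Mnd1 (Entrez ID 76915, chr3:84087933-84160075) encodes the subunit that forms, with the product of Psmc3ip (also known as Hop2), a heterodimer that stabilises recombinase filaments. Mnd1 was at 4.39, 5.21, 4.93 and 4.8 CPM against 6.04, 7.33, 7.16 and 5.83 CPM, again without overlap. The log2 fold change of -0.45 (SE 0.13, 95% interval -0.73 to -0.17) had an adjusted p of 0.044. This call was lost when any 1 of the 8 mice was left out, with adjusted p-values of up to 0.12 over the alternatives. It was also lost with DESeq2 or its size factors, without a filter on low counts and with the replicate number as a block.

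Psmc3ip, in contrast to its partner, was at 113, 97.0, 102 and 103 CPM against 105, 93.7, 103 and 101 CPM. The labels overlapped, with a log2 fold change of 0.04 (SE 0.069, adjusted p = 0.75), which was -0.0024 without replicate 1 labelled Tmem232-/-. Whether the changes of Mnd1 and Psmc3ip differ was not tested. Meiob and Spata22, which form a single-stranded DNA binding complex, had 22.5 and 34.6 FPKM, and Meiob reached 31.6 ± 4.38 CPM against 38.3 ± 4.35 CPM (SD, n = 4 each) with overlap. Brca2, which loads recombinases, and Tex15, which is required for their loading onto breaks, had 10.2 and 29.4 FPKM and overlapped between the labels. Rad51ap2 was at 10.8, 12.4, 13.5 and 10.1 CPM against 13.6, 20.6, 13.9 and 14.7 CPM. Its groups did not overlap, but the adjusted p was 0.10, and replicate 2 labelled Tmem232+/+ stood far above the others.

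**Figure D3:**
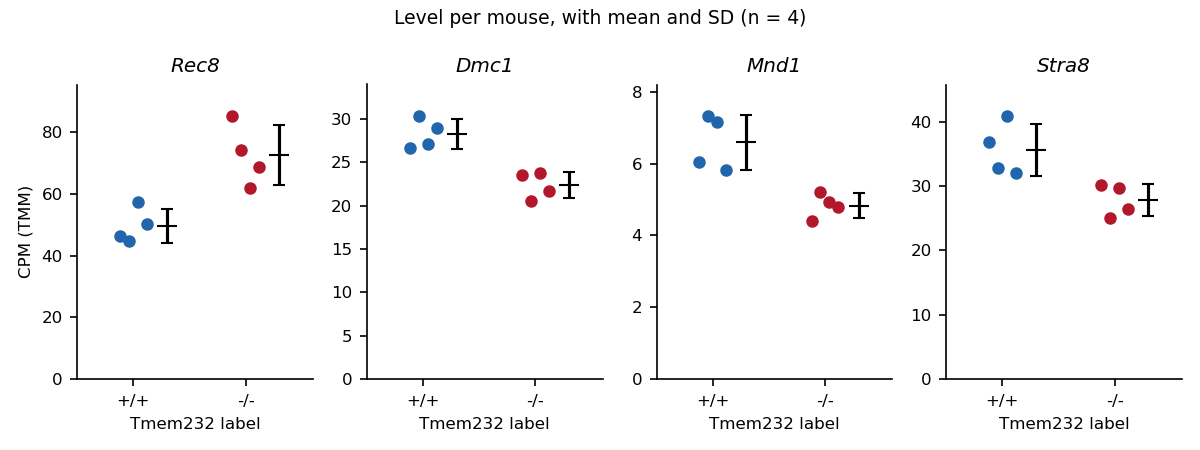
CPM after TMM scaling (vertical axis, from 0) of the 4 called genes in each mouse, with the mean and SD of 4 mice beside the points. The mice labelled Tmem232-/- (red) sit between 62.0 and 85.3 CPM for Rec8, above all Tmem232+/+ mice (blue), and below all of them for Dmc1, Mnd1 and Stra8.

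Crossover formation gave no call among 7 genes, and the median log2 fold change was -0.07. Msh5, which with Msh4 forms a clamp that stabilises recombination intermediates, was at 18.8, 19.6, 22.0 and 19.3 CPM against 23.0, 22.6, 22.4 and 25.1 CPM. Its groups were separated by a narrow gap, and the log2 fold change was -0.22 (SE 0.083, adjusted p = 0.12). Mlh3, whose endonuclease resolves intermediates into crossovers, was at 77.6, 81.7, 91.6 and 69.8 CPM against 89.0, 87.9, 76.9 and 82.9 CPM. The mice of the labels interleaved, with a log2 fold change of -0.07 (SE 0.088, adjusted p = 0.65). Hfm1, a meiotic helicase that promotes crossing over, was at 98.8, 100.8, 101.6 and 81.3 CPM against 93.4, 109.7, 81.4 and 107 CPM. The highest and the second lowest value were both of the label Tmem232+/+, and the log2 fold change was -0.03 (SE 0.11, adjusted p = 0.86). Msh4 had 10.4 FPKM, and Tex11, a factor that links synapsis to crossing over, had 8.82 FPKM. Rnf212, a SUMO ligase that marks future crossovers, had 5.24 FPKM, and Ccnb1ip1 (also known as Hei10), which limits it, had 10.9 FPKM. The log2 fold changes of the 7 genes lay between -0.22 and 0.06.

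The 4 cohesin genes held the call with the smallest adjusted p. Rec8 (Entrez ID 56739, chr14:55617995-55625395) encodes the subunit that closes meiotic cohesin rings around sister chromatids. It was at 85.3, 74.3, 62.0 and 68.9 CPM in replicates 1 to 4 labelled Tmem232-/- and at 46.4, 44.9, 57.3 and 50.2 CPM under the label Tmem232+/+. Every mouse labelled Tmem232-/- was above all others, and the closest were 62.0 and 57.3 CPM. The log2 fold change was 0.55 with a standard error of 0.11, a 95% interval of 0.31 to 0.78 and an adjusted p of 0.005, and Rec8 was called in all 17 alternatives that use an adjusted p, with values of 5.5e-05 to 0.03, but it does not reach the limit of 2-fold.

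Stag3, the meiosis-specific cohesin subunit that binds the kleisins, had a higher level than Rec8 at 172 FPKM. It was at 504, 687, 689 and 494 CPM against 636, 615, 379 and 587 CPM. The lowest mouse was labelled Tmem232+/+, and the log2 fold change of 0.10 (SE 0.17, adjusted p = 0.75) became negative in FPKM. Smc1b, the meiotic SMC subunit, had 80.6 FPKM and 336 ± 39.1 CPM against 290 ± 22.7 CPM (SD, n = 4 each), with overlap and an adjusted p of 0.19. Rad21l, the other meiotic kleisin, had 3.8 FPKM and 9.39 ± 1.26 CPM against 10.7 ± 1.16 CPM (SD, n = 4 each), with overlap. Meikin, which acts at the kinetochore of the first division, was at 31.9, 28.0, 27.3 and 28.1 CPM against 29.5, 26.5, 34.8 and 29.2 CPM. The mice interleaved, with a log2 fold change of -0.06 (SE 0.095, adjusted p = 0.75).

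None of the 4 genes that attach telomeres to the nuclear envelope was called, and their median log2 fold change was 0.01. Sun1, the inner nuclear membrane protein that links telomeres to the cytoskeleton, was at 163, 164, 165 and 146 CPM against 152, 157, 136 and 151 CPM. In this label 3 values were above all others and the last was below most of them, at a log2 fold change of 0.10 (SE 0.07, adjusted p = 0.41). Terb1, Terb2 and Majin, which form the adaptor between telomeres and the membrane, had 21.2, 8.64 and 18.3 FPKM. Terb1 had nearly the same level under the labels, with 55.2 ± 3.42 CPM against 55.6 ± 2.31 CPM (SD, n = 4 each), and the 95% interval of its log2 fold change was -0.16 to 0.14.

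Of the 3 genes of meiotic entry only Stra8 was called. Stra8 (Entrez ID 20899, chr6:34920163-34939344) is induced by retinoic acid in differentiating spermatogonia and preleptotene spermatocytes. It was at 30.1, 25.0, 29.8 and 26.4 CPM against 36.8, 32.9, 40.9 and 32.1 CPM. The highest mouse labelled Tmem232-/- lay below the lowest of the others, at 30.1 and 32.1 CPM. The log2 fold change was -0.36 with a standard error of 0.099, a 95% interval of -0.57 to -0.14 and an adjusted p of 0.038, which rose above the threshold when replicates 2 or 4 labelled Tmem232-/- or replicates 1 or 3 labelled Tmem232+/+ were left out (up to 0.16), with the size factors of DESeq2 (0.059) and without a filter on low counts (0.077). Meioc, which with the RNA helicase gene Ythdc2 keeps the meiotic programme running after entry, was at 287, 268, 292 and 234 CPM against 269.9, 294, 259 and 287 CPM. These mice interleaved, and the log2 fold change was -0.04 (SE 0.082, adjusted p = 0.80). Ythdc2 had 14.8 FPKM and overlapped between the labels.

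The proximal promoters of the 4 called genes are shown since these are the genes that passed the test. The sequences are the 250 bases before the RefSeq start in GRCm38.p6, on the strand of the gene, at chr14:55617916-55618165 (plus strand) for Rec8, chr15:79605110-79605359 (minus strand) for Dmc1, chr3:84155787-84156036 (minus strand) for Mnd1 and chr6:34920698-34920947 (plus strand) for Stra8. The gene spans of the deposited table begin further upstream than the RefSeq starts. Capitals mark the E2F-type letters GCGGGA, here on the reverse strand as TCCCGC, and the nuclear receptor letters AGGTCA.
Rec8: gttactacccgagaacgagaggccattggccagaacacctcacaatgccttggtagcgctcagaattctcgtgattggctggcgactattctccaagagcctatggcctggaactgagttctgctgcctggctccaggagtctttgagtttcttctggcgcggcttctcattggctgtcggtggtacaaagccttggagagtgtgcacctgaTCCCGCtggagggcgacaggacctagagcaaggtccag
Dmc1: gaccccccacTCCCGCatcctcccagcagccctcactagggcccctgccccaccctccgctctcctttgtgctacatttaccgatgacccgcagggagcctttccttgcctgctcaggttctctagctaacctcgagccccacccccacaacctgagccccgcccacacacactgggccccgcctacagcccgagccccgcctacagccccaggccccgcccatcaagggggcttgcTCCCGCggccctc
Mnd1: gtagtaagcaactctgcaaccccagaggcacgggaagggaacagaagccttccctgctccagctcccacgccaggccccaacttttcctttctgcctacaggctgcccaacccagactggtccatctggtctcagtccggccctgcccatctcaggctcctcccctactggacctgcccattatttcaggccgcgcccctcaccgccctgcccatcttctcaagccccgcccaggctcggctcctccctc
Stra8: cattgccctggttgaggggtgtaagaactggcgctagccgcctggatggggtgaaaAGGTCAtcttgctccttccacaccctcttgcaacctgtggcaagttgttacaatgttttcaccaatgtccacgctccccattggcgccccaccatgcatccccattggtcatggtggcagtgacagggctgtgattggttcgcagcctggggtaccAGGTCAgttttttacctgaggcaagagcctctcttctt

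Dmc1 holds TCCCGC at positions -240 to -235 and -13 to -8 from the start, and Rec8 holds it at -38 to -33. Stra8 holds AGGTCA at -194 to -189 and -38 to -33. Mnd1 has none of the letters searched. Rec8, which was called higher, and Dmc1, which was called lower, both hold TCCCGC. A link of these letters to the direction of a change was not tested. Both strands of 5 motifs were searched, namely the E-box CACGTG, the E2F-type GCGGGA, the MYB-type CAACNG, the CRE TGACGTCA and the nuclear receptor letters AGGTCA, which do not overlap each other in the windows shown. A window was given for 37 of the 45 genes. GCGGGA was in 18 of them (48.6%), beside 30.7% of the tested genes and 18.8% of all 27025 genes with a window. CACGTG was in 7 (18.9%), beside 9.2% and 6.9%, and these were Hormad1, Rec114, Stag3, Syce2, Sycp1, Sycp3 and Tex12. AGGTCA was in 7 (18.9% beside 14.2% and 15.8%), CAACNG in 9 (24.3% beside 32.8% and 32.3%) and TGACGTCA in 1 (2.7% beside 2.7% and 1.8%). The median GC content was 59.0% in the windows of the 45 genes, 58.8% in those of the tested genes and 52.4% in all. A match of letters is a description and was not tested for binding.

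Genes that overlap in the genome can share reads, and the sources do not say whether counting used the strand. Rec8 shares 3155 bases of its span with Ipo4, an importin gene on the opposite strand, which had 357 ± 45.01 CPM against 333 ± 45.8 CPM (SD, n = 4 each) and was not called (log2 fold change 0.10, adjusted p = 0.62). Dmc1 shares 3204 bases with Kcnj4, at means of 1.17 and 1.54 CPM (log2 fold change -0.40, adjusted p = 0.39). Mnd1 shares 2642 bases with Trim2, at means of 2.93 and 2.52 CPM (log2 fold change 0.22, adjusted p = 0.56). This overlap rests on the deposited span of Mnd1, which ends at 84160075, while the GENCODE annotation ends it at 84155786. The deposited strand differs from GENCODE for 7 of the 45 genes, Mnd1 among them. Stra8 has no overlap in the table. Some spans in the table appear merged across distant loci, such as that of Nfya, which covers Prdm9, Meiob and Msh5, so overlaps were not counted over the 45 genes. The part that shared reads have in the counts was not tested.

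A further 69 genes of general recombination, synapsis, cohesin and sex chromosome silencing, which are no members of the 45, were counted in the same way. None was called higher by edgeR and 2 were called lower, against the 10.3% and 1.46% of all tested genes, with a median log2 fold change of -0.08 and 55 negative values. The 2 were H2afx, the histone variant phosphorylated on the unsynapsed sex chromosomes, and Scml2, a germline Polycomb protein that acts there. H2afx had 73.2 ± 5.35 CPM against 93.4 ± 8.62 CPM (SD, n = 4 each), a log2 fold change of -0.35 (SE 0.082, adjusted p = 0.015). Scml2 had 65.7 ± 3.6 CPM against 78.6 ± 4.76 CPM (SD, n = 4 each), a log2 fold change of -0.26 (SE 0.069, adjusted p = 0.03). H2afx lost its call without replicate 2 labelled Tmem232-/- or replicate 1 labelled Tmem232+/+ (adjusted p up to 0.056), and Scml2 without any single mouse other than replicate 3 labelled Tmem232-/- (up to 0.10). With the replicate number as a block both calls were lost (adjusted p = 0.066 for H2afx and 0.13 for Scml2), although these numbers do not pair the mice. Without a filter on low counts Scml2 was not called either (adjusted p = 0.087). In 9 of the 69 (13.0%, against 6.88% of the tested genes) all mice labelled Tmem232-/- were below the others, and in none (against 11.8%) were they above. DESeq2 called 2 of the 69 higher, Pms2 and Smc3, which edgeR gave an unadjusted p under 0.05. General recombination and repair genes, 37 in number with Brca1, Atm and Pms2 among them, gave no call in edgeR. Their median log2 fold change was -0.07. At an unadjusted p under 0.05, 1 of the 37 was higher and 3 were lower, beside 14.6% and 10.5% of all tested genes. The 13 general cohesin and loader genes, Smc3 among them, gave no call in edgeR with a median of -0.05. The 12 genes of synapsis, axis and telomere attachment gave no call in edgeR, with a median of -0.13 and 11 negative values. All 7 sex chromosome silencing genes, H2afx and Scml2 among them, had negative values, with a median of -0.18. Of all tested genes 60.8% had a negative value.

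Markers of other cell types were examined in the same libraries. Of all tested genes, edgeR called 10.3% higher and 1.46% lower. At an unadjusted p under 0.05 these shares were 14.6% and 10.5%. All 12 round spermatid markers were called higher in the libraries labelled Tmem232-/-, with a median log2 fold change of 1.07, and their summed level was 752 to 1038 CPM against 333 to 521 CPM. Of the 13 elongating spermatid markers 12 were higher with a median of 1.62, at 1717 to 2709.5 CPM against 649.6 to 1197 CPM in sum. Spermatocyte markers outside the 45 genes had a median of 0.00, and their sums of 7936 to 8793 CPM and 7894 to 8879 CPM overlapped. Of these 16, Pgk2, Spag6 and Calr3 (18.75%) were called higher and none lower, while 8 had a positive and 8 a negative value. Whether expression in spermatids sets the called ones apart was not tested. Of 11 tested spermatogonial markers Sohlh1 and Uchl1 were lower, while Gfra1 had a log2 fold change of 0.42 that was not called (unadjusted p = 0.016). At an unadjusted p under 0.05, 6 of them were lower and 1 higher, and the sums were 270.0 to 295 CPM against 309 to 334.5 CPM without overlap. Sertoli, Leydig, macrophage and endothelial markers gave no call in edgeR. However, 5 of the 9 Leydig markers were higher at an unadjusted p under 0.05, and DESeq2 called 2 of them, Star and Lhcgr. Summed Leydig levels were 528 to 775 CPM against 363 to 601 CPM and summed Sertoli levels 1896 to 2453 CPM against 2234 to 2347 CPM. By edgeR 1 of the 6 peritubular markers was higher and 2 were lower. No marker of any list was at 0 in any library. The part that these markers have in the changes of Rec8, Dmc1, Mnd1 and Stra8 was not tested.

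Within a label, the 45 genes varied with transcript length. Length was taken as the value implied by count and FPKM, from 0.275 kb for Syce3 to 10.2 kb for Brca2, and each level was set against the mean of its label on the log2 scale. Spearman's rho with length over the 45 genes was -0.39, 0.35, 0.65 and -0.56 in replicates 1 to 4 labelled Tmem232-/- and 0.06, 0.42, -0.60 and 0.46 in replicates 1 to 4 of the label Tmem232+/+. Because each level was set against the mean of its label, values of both signs under a label follow from that step. The values over all tested genes had the same signs in all 8 libraries, from -0.45 to 0.44. The points of a library share its depth and preparation, so these are descriptions. The fold change between the labels had a rho with length of 0.29 over the 45 genes and of 0.00025 over all tested genes. The 16 genes of at least 3 kb had a median log2 change of -0.04 and the 7 genes under 1 kb, Mnd1 among them, of -0.14. The part of this pattern in the calls was not tested.

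**Figure D4:**
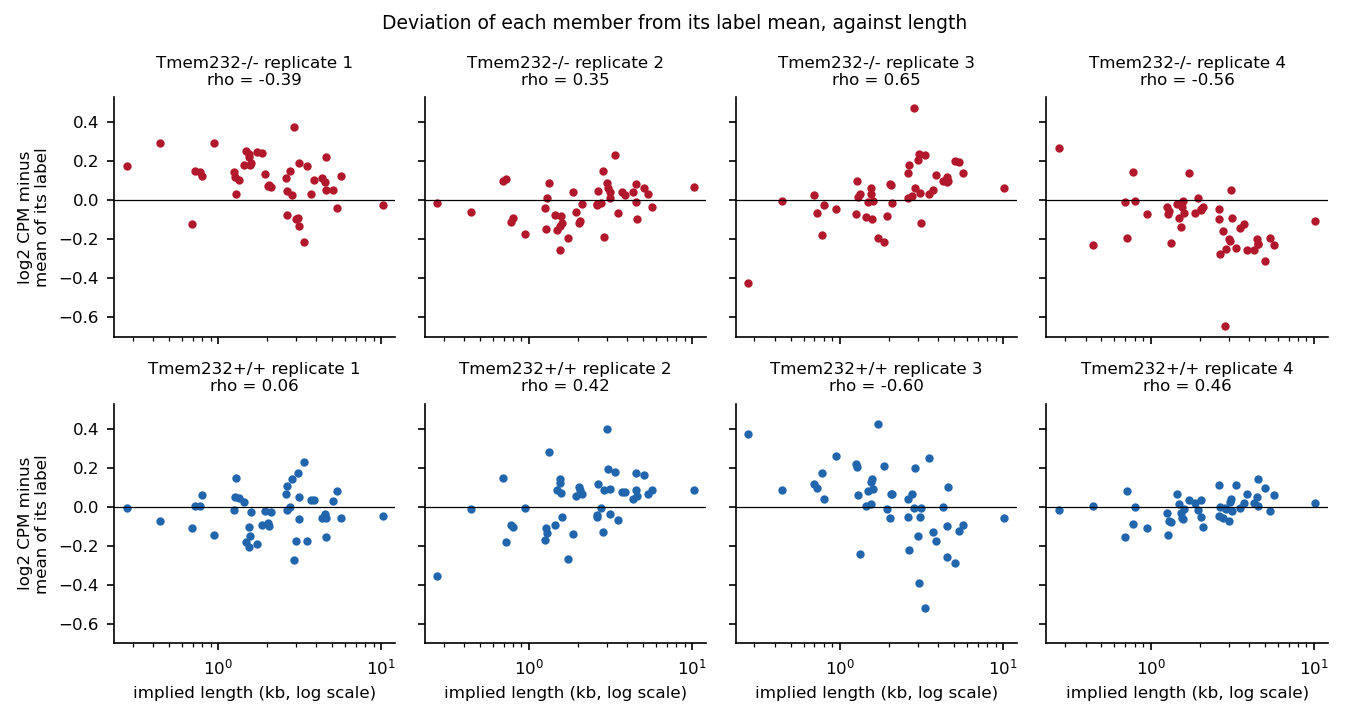
Deviation of each of the 45 genes from the mean of its label (log2 CPM, vertical axis) against the length implied by count and FPKM (kb, log scale, horizontal axis), 1 panel per library and 1 point per gene, with Spearman's rho. Points fall with length in replicates 1 and 4 labelled Tmem232-/- (rho -0.39 and -0.56) and replicate 3 labelled Tmem232+/+ (-0.60), rise in 4 others, and show no slope in replicate 1 labelled Tmem232+/+ (0.06).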

How the data were processed

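The authors deposited estimated counts per gene without normalization. Per the labels and methods, reads were mapped to GRCm38.p6 with HISAT and Bowtie2, counted with StringTie and featureCounts and compared with DESeq2. The deposited FPKM scale these counts to transcript length and library total, as checked on genes with 1 transcript. The authors' fold changes, p-values and q-values were not used.

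All 8 libraries were used, grouped by their labels. Counts were rounded, since between 10.7% and 11.2% of the genes in a library had a count with any decimal part. Counts were analysed in R 4.3.3 with edgeR 4.0.16 (default filter on low counts, TMM, quasi-likelihood test without covariates, Benjamini-Hochberg adjustment over 15787 genes). CPM of single genes were compared by an exact two-sided permutation test over 70 arrangements (Python 3.11.15, scipy 1.17.1). Intervals are at 95%, and depths of 15428421 to 16350871 counts limit the precision of low genes. Steps were tested on simulated data.

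Members and lists were chosen with earlier results of these data known. Values in every mouse are given for called members, the member of each role with the highest FPKM and the one with the largest absolute log2 fold change, and for Stra8, Spo11, Prdm9, Dmc1, Sycp1, Sycp3 and Mlh3. Rad51ap2 was added after its values were seen. Of the other pathway genes, called ones are named. Marker lists covered spermatogonia, spermatocytes, round and elongating spermatids, Sertoli, Leydig, peritubular myoid and endothelial cells and macrophages.

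Alternatives were DESeq2 1.42.0, its size factors in edgeR, library size alone, upper quartile scaling, no filter, a minimum of 10 counts, limma-voom (limma 3.58.1), limma on log2 of FPKM plus 1, a block of replicate numbers, a limit of 2-fold with an unadjusted p under 0.05, and each library left out in turn. Sequences are from RefSeq (GRCm38.p6).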

Additional observations from a re-analysis of the deposited data

Results flagged for a closer look

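In 6 of the 90 groups of 4 mice formed by the 45 genes and the 2 labels, 1 mouse stood apart from the other 3, by a gap that exceeds Dixon's 95% limit for the share of the group's range, and chance alone flags about 4.5 such groups. Among the mice labelled Tmem232-/-, Mei1 was at 10.9 CPM in replicate 1 and at 12.3 to 12.5 CPM in the others, and Meikin was at 31.9 CPM in replicate 1 beside a next value of 28.1 CPM. In replicate 4 of that label Hfm1 was at 81.3 CPM beside a next value of 98.8 CPM, and Sun1 was at 146 CPM beside 163 CPM. Among the mice labelled Tmem232+/+, Rad51ap2 was at 20.6 CPM in replicate 2 beside 14.7 CPM, and Terb2 was at 17.2 CPM in the same mouse, above the others of its label.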

How the results depend on the processing

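The call of Rec8 and the direction of Dmc1, Mnd1, Stra8, Rec114, Zcwpw1, Msh5, Prdm9, Spo11, Sycp1, Sycp3, Hormad1 and Sun1 held under the 17 alternatives that use an adjusted p, and DESeq2 called 2 of the 45 genes lower, without Mnd1 (adjusted p = 0.096). The number of the 45 genes called lower was 3, and it was 1 (Dmc1) with the size factors of DESeq2, 1 (Dmc1) without a filter on low counts and 0 at a limit of 2-fold, at which the number called higher was also 0. With single mice left out it ranged from 0 (without replicate 2 labelled Tmem232-/-) to 2, and the number called higher from 1 to 2 (Smc1b joined Rec8 without replicate 4 labelled Tmem232-/-). The median log2 fold change of the 45 genes ranged from -0.15 to -0.013 with single mice left out, the extremes without replicates 1 and 4 labelled Tmem232-/-, and the median of all tested genes was -0.092 with upper quartile scaling, -0.029 with the size factors of DESeq2 and 3.3e-05 without a filter. Of the 69 further genes, the number called higher was 2 with DESeq2, 1 without a filter and 0 to 2 with single mice left out. The number of these called lower was 5 with library size alone, 6 with upper quartile scaling, 1 without a filter, 4 with FPKM and 0 to 2 with single mice left out. Zcwpw1 was called with upper quartile scaling (adjusted p = 0.036) and Rec114 with FPKM (adjusted p = 0.034).

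Of the 19 genes given with values in every mouse by the rule, which are those recomputed under the alternatives, the sign changed in 6, none of which was called. Without a filter the log2 fold change was 0.0096 for Hfm1 and 0.0053 for Meioc, and with FPKM it was -0.0083 for Stag3. With single mice left out it ranged from -0.083 to 0.049 for Hfm1, from -0.078 to 0.037 for Meioc, from -0.014 to 0.21 for Stag3, from -0.0024 to 0.099 for Psmc3ip, from -0.14 to 0.0045 for Mlh3 and from -0.11 to 0.054 for Meikin. The cause of these shifts was not tested.

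Mice with the same replicate number did not deviate together (r of -0.122, 0.129, -0.445 and -0.144 over 15063 genes), so the numbers do not pair them. Some mice with unlike numbers did. Replicate 1 labelled Tmem232-/- had r of 0.489 with replicate 3 labelled Tmem232+/+ and of -0.408 with replicate 2 of that label, the extremes. The source of these shared deviations was not tested. With the replicate number as a block, the number called lower was 1 of the 45 genes (Stra8) and 0 of the 69 further genes, and Rec8 was called. Mei4, Rec114 and Mnd1 had the lowest counts of the 45 genes, and depth limits what can be said of such low genes.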
